A study of Mus musculus with 48 samples.

Results

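The 9 genes described here encode parts of the complement system: the chains of C1q (C1qa, C1qb, C1qc), C4b and C2 of the classical pathway, the central component C3, factor B (Cfb) and properdin (Cfp) of the alternative pathway, and the receptor for the C3a fragment (C3ar1). They were chosen by name, not by a limit on a measured value, though with earlier results of these data known. They are 9 of the 55487 genes with counts, and all 9 were found. RNA of polyA type was sequenced from 4 kinds of myeloid cell sorted from digested nodes of wild-type mice: medullary sinus macrophages (MSM), subcapsular sinus macrophages (SSM), migratory dendritic cells (mDC) and resident dendritic cells (rDC). Each kind was taken from a lymph node (LN) and from a tumor-draining lymph node (TDLN), after PBS or after cisplatin (CIS), a platinum drug that crosslinks DNA, which gave 16 groups of 3 libraries and 48 libraries in all. The mice that gave a TDLN bore tumors. The tumor, the dose, the age of the mice, and whether an LN came from the same mice as a TDLN are not given in the sources used here. The labels do not tie libraries to animals, so p-values measure the spread between these libraries, which may be technical. All values below are CPM, counts normalised for library size and scaled by TMM within the macrophage table or within the dendritic cell table, and levels in macrophages and in dendritic cells come from tables that were scaled apart. CPM is not divided by gene length, so it is compared here between libraries of 1 gene and not between genes.

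Complement is a cascade of plasma and cell-derived proteins. C1q binds antibody complexes and dying cells, and the proteases bound to it cleave C4 and C2, whose fragments form the enzyme that splits C3. In the alternative pathway factor B takes the place of C2, and properdin stabilises the enzyme it forms. C3 fragments coat particles for uptake, and C3a acts through its receptor on myeloid cells. Most plasma complement is made in the liver, but tissue macrophages are a known source of C1q, and sinus macrophages of the node take up complement-coated antigen from lymph and hand it to B cells.

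C1qb and C1qc lie next to each other. Their lowest macrophage mean, like that of C3, Cfp and C3ar1, was in the group labelled MSM of LN CIS. The order of the other groups differed among these 5 genes. Their promoters are shown to set the letters beside these levels. They are the RefSeq sequences of GRCm38.p6 from 250 bases before to 50 bases after the annotated start, 5′ to 3′ on the gene's strand, which is the minus strand for each. RefSeq tables held an entry for 5 of the 9 members; C1qa, C2, C4b and Cfb had none. Capitals mark letters that match a searched motif on the printed or on the other strand: GAGGAA (the core bound by PU.1, a myeloid factor), AGGAAGT (a longer ETS site that can overlap it), TGCTGA (part of a MAF site) and TTGCNNAA (a C/EBP site).
C1qb, chr4:136886151-136886450: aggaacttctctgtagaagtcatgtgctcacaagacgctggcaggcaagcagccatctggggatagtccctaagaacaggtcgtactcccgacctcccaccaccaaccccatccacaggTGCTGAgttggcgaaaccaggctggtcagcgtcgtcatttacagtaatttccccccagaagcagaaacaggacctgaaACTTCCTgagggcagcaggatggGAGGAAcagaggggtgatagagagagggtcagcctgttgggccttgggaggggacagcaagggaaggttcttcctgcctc
C1qc, chr4:136892865-136893164: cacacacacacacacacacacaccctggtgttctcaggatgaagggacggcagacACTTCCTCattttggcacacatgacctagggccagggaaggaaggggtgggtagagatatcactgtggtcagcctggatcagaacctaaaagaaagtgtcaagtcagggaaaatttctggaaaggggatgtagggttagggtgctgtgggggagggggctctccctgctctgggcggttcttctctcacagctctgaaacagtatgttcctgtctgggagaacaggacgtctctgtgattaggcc
C3, chr17:57228087-57228386: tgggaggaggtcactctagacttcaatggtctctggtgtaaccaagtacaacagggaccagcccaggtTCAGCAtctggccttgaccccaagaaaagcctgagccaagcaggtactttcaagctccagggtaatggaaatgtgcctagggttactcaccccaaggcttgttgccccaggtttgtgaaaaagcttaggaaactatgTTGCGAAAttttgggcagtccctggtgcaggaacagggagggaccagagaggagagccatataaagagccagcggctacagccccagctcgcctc
Cfp, chrX:20931506-20931805: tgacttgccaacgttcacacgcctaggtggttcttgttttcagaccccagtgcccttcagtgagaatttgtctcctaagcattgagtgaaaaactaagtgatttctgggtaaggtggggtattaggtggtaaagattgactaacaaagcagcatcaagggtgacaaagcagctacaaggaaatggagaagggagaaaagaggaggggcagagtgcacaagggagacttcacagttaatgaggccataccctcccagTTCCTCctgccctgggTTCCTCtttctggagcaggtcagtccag
C3ar1, chr6:122856108-122856407: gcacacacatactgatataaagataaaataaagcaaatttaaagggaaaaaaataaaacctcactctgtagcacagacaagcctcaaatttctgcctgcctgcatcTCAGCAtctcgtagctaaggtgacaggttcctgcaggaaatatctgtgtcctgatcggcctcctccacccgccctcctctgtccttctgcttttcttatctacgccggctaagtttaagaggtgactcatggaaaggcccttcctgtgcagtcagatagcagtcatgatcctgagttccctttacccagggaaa

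In the C1qb promoter GAGGAA begins 30 bases before the start, AGGAAGT lies on the other strand at -53 and TGCTGA at -131, where positions count from the annotated start. C1qc holds AGGAAGT and GAGGAA on the other strand, overlapping, at -195 and -193. C3 holds TTGCNNAA at -45 and TGCTGA on the other strand at -182. Cfp holds GAGGAA on the other strand just after the start, at 7 and 23. C3ar1 holds TGCTGA on the other strand at -144 and none of the other motifs. Such short words are common: of 32851 promoters of the same length, 28.3% hold GAGGAA, 9.35% AGGAAGT, 19.5% TGCTGA and 10.8% TTGCNNAA. A match describes letters and is not evidence of binding.

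Total counts per library were 6456456 to 10434248 in macrophages. In dendritic cells they were 2002713 to 3842097 in 18 libraries and 10733509 to 15481059 in the other 6, the deep libraries. These were all the libraries of mDC of TDLN PBS and of rDC of LN PBS. Depth thus differed along with the condition in every comparison that holds 1 of these groups. Calls that were lost when the deep libraries were thinned are named below. Among macrophages, 4 libraries went against their labels: library 2 of MSM and of SSM in LN PBS, and MSM library 1 and SSM library 3 in TDLN CIS. Each correlated at r of 0.990 or more with the group of the other cell type and at most 0.796 with its own over 11626 genes. Tests and counts of calls in macrophages are given as labelled and without all 4 of them, and where a member's libraries in those 4 groups are listed the 2 others are named first. Summed markers and the orders of groups are over the libraries as labelled. A group also went against its label as a whole: the summed level of 12 macrophage markers was 1760.4 to 1836 CPM in MSM of LN CIS and 13217 to 15658 in MSM of LN PBS. Siglec1 (CD169), the defining marker of sinus macrophages, was at 0 to 0.287 CPM and Adgre1 (F4/80) at 3.43 to 3.93 CPM in MSM of LN CIS. The summed level of 10 dendritic cell markers was 12262 to 12651 CPM there against 3557 to 6673 CPM in LN PBS, and that of 7 B cell markers 4420.5 to 4502 against 228 to 3466. These libraries are therefore called the libraries labelled MSM of LN CIS, and the part of these markers in the complement results was not tested. In sorted bulk samples, fewer cells that carry a transcript and less RNA per cell cannot be told apart.

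Cisplatin was followed by lower C3 and Cfb in the TDLN in both macrophage kinds, and by higher C3 and Cfb in the TDLN in both kinds of dendritic cell, where the call of C3 in mDC was lost with no filter on low counts. The macrophage and dendritic cell responses were not tested against each other. In macrophages the test was edgeR's quasi-likelihood test over all genes, with Benjamini-Hochberg adjustment and a limit of 0.05. In MSM of the TDLN it called 1 of 9 higher and 3 lower after cisplatin, where 37.1% of all genes tested were called, and 2 higher and 7 lower without the 4 libraries, where 69% were called. In MSM of the LN it called 0 of 9 higher and 7 lower against a background of 43.4%, and 0 higher and 8 lower without the 4 libraries against 74%. The cisplatin arm there is the libraries labelled MSM of LN CIS, which held few macrophage markers and none of the 4 libraries. The median log2 fold change in the LN was -1.83 for the members and -0.15 for all genes tested, and without the 4 libraries -1.57 for the members and -0.08 for all genes tested. SSM of the TDLN had 0 of 9 higher and 3 lower after cisplatin against 23%, and 5 higher and 4 lower against 71.1% without the 4 libraries. SSM of the LN had 1 of 9 higher and 0 lower against 13.3%, and 4 higher and 4 lower against 60% without them. The coefficient of variation that the model shared over all genes was 0.418 in MSM and 0.403 in SSM as labelled, and 0.0711 and 0.0716 without the 4 libraries. Those libraries were left out because they differed from their groups, so the smaller spread and the added calls follow in part from that choice. Their groups then held 2 libraries each.

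Between nodes, MSM with PBS had 2 of 9 higher and 1 lower in TDLN than in LN against a background of 38.2%, and 7 higher and 2 lower against 69.7% without the 4 libraries. MSM with cisplatin had 7 of 9 higher and 0 lower against 43.3%, and 8 higher and 1 lower against 74.4%, all of them set against the libraries labelled MSM of LN CIS. SSM with PBS had 1 of 9 higher and 0 lower against 19.7%, and 4 higher and 5 lower against 67.8%. SSM with cisplatin had 0 of 9 higher and 3 lower against 17.4%, and 3 higher and 5 lower against 61.9%. The test of whether cisplatin acted differently in the TDLN and in the LN called 4 of 9 higher and 0 lower in MSM against 40.7%, and 3 higher and 3 lower against 65.1% without the 4 libraries. In MSM this test too included the libraries labelled MSM of LN CIS. In SSM it called 0 of 9 higher and 3 lower against 21.6%, and 4 higher and 4 lower against 65.8%. These comparisons share their groups: the PBS libraries of 1 node serve both as the base for cisplatin and as an arm of the comparison between nodes.

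MSM and SSM were compared within each condition. In LN CIS 9 of 9 members were lower in the libraries labelled MSM, against a background of 49.7%, and 9 against 72.4% without the 4 libraries. The log2 differences ran from -6.43 (C1qa) to -0.97 (C3), and without them from -6.36 (C1qa) to -0.91 (C3). In TDLN PBS, 1 was higher and 1 lower in MSM against 40.8%, and 7 higher and 2 lower against 67.1% without the 4 libraries. None of these 4 libraries belongs to LN CIS or TDLN PBS, and they enter those comparisons through the shared estimate of the spread. As labelled, LN PBS gave 0% and TDLN CIS 0% of 19671 genes called by edgeR, with 0 members. Before adjustment, at an unadjusted p under 0.05 edgeR listed 245 and 178 genes, and DESeq2 called 2 and 0 genes after adjustment and listed 340 and 224 before it. Leaving out the 4 libraries, LN PBS had 2 higher and 6 lower in MSM against 62%, and TDLN CIS 2 higher and 7 lower against 63.3%.

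**Figure D1:**
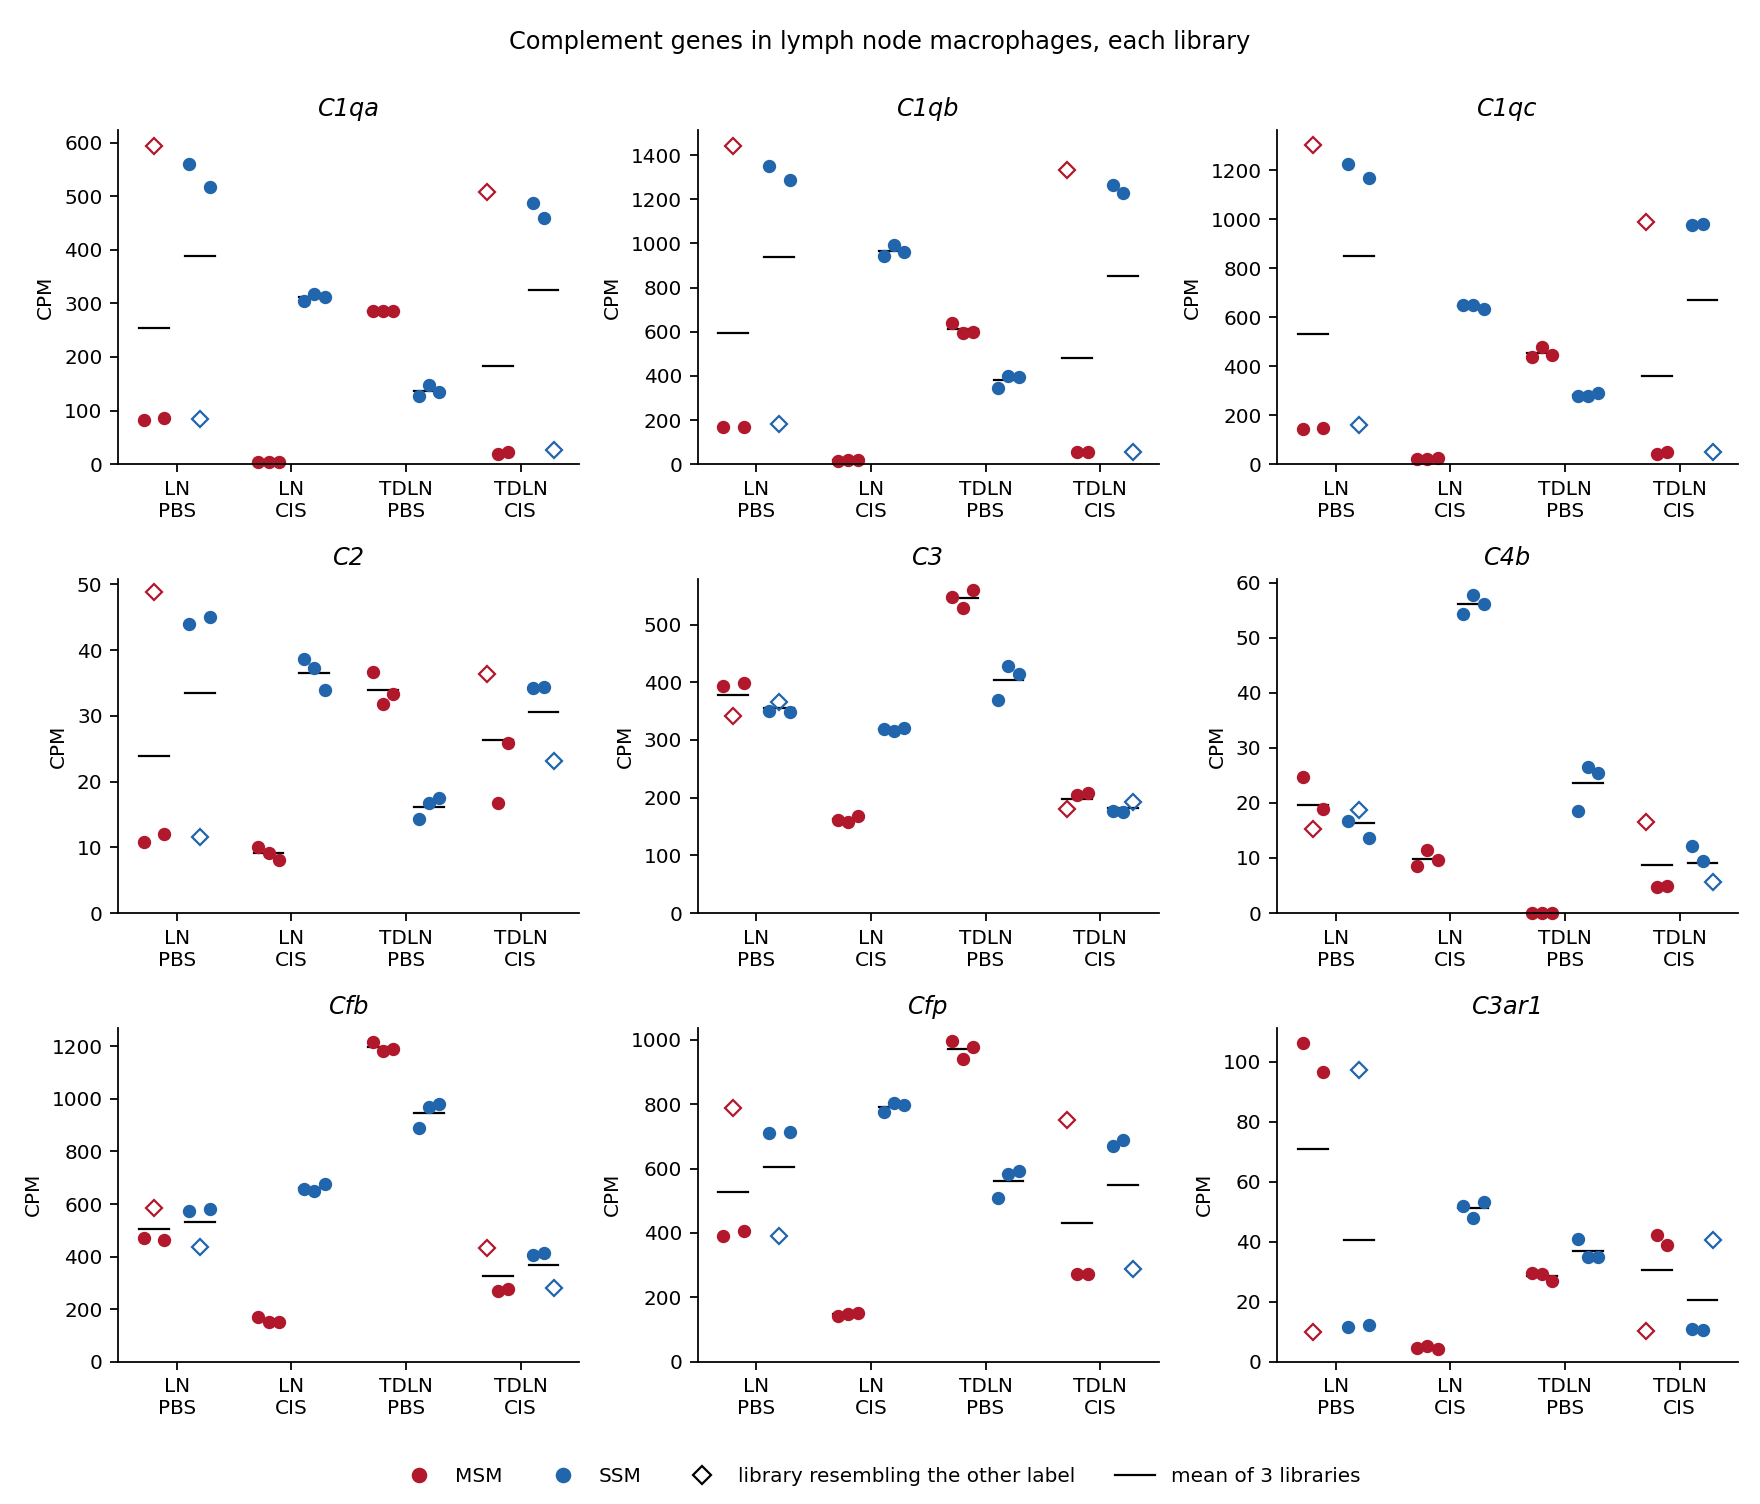
Level of each complement gene in CPM (y axes, linear, a scale of its own per gene) in the 24 macrophage libraries by node and treatment (x axes), with MSM in red and SSM in blue; open diamonds are the 4 libraries that resemble the other label and bars are means of 3 libraries. C3 and Cfb are lower in TDLN CIS than in TDLN PBS in both kinds. Every member except C4b has its lowest mean in the libraries labelled MSM of LN CIS, and C4b is at 0 in MSM of TDLN PBS.

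In macrophages the chains of C1q varied widely. Their genes lie side by side on the minus strand of chromosome 4 (GRCm38), C1qb at chr4:136880129-136886187, C1qc at chr4:136889804-136893065 and C1qa at chr4:136895917-136898803, with 3616 and 2851 bases between them. C1qa in MSM of LN PBS was at 82.6 and 87.01 CPM in libraries 1 and 3 and 594 in library 2. In SSM of LN PBS it was at 561 and 518 CPM in libraries 1 and 3 and 84.9 in library 2, so the library that resembles the other label takes the other kind's level in both groups. The libraries labelled MSM of LN CIS held 3.58, 3.44 and 3.79 CPM, the lowest of all macrophage groups, and did not overlap any of them. SSM of LN CIS held 304, 318 and 312 CPM. In TDLN PBS the order of the 2 kinds was turned: MSM held 286, 286 and 285 CPM and SSM 126, 148 and 134, without overlap. In TDLN CIS, MSM held 19.8 and 22.1 CPM in libraries 2 and 3 and 507 in library 1. SSM there held 488 and 460.1 CPM in libraries 1 and 2 and 25.7 in library 3.

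C1qb, the second chain, had the same order of groups as C1qa when the 4 libraries were left out. As labelled its highest mean was in SSM of LN CIS, and that of C1qa in SSM of LN PBS. C1qb in MSM of LN PBS was at 168 and 170.3 CPM in libraries 1 and 3 and 1443 in library 2. In SSM of LN PBS it was at 1349 and 1287 CPM in libraries 1 and 3 and 181 in library 2. It was at 16.6, 16.8 and 18.2 CPM in the libraries labelled MSM of LN CIS and at 941, 995 and 961 in SSM of LN CIS. TDLN PBS gave 638, 596 and 597 CPM in MSM and 346, 399 and 396 in SSM, again without overlap and with MSM the higher. In TDLN CIS, MSM held 53.2 and 57.1 CPM in libraries 2 and 3 and 1335 in library 1. SSM there held 1266 and 1229.95 CPM in libraries 1 and 2 and 56.9 in library 3. C1qc, the third chain, ran from 20.8 to 26.3 CPM in the libraries labelled MSM of LN CIS to 634 to 651 in SSM of LN CIS, and was at 439, 479 and 448 CPM in MSM and 277, 279 and 289 in SSM of TDLN PBS. Over 24 macrophage libraries the sum of the 3 chains spanned 41 to 3339 CPM, 81.4-fold, the ratio of C1qb to C1qa ranged from 1.96 to 4.89 and that of C1qc to C1qa from 1.54 to 6.94; the highest of both ratios were those of the libraries labelled MSM of LN CIS.

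As labelled, cisplatin in the LN was followed by a log2 fold change in MSM of -6.13 ± 1.42 (adjusted p = 0.00635) for C1qa, -5.10 ± 1.37 (adjusted p = 0.013) for C1qb and -4.50 ± 1.3 (adjusted p = 0.0184) for C1qc, each with its SE over 3 libraries a group. Once the 4 libraries were dropped, these were -4.55 ± 0.10 (adjusted p = 1.62e-17), -3.29 ± 0.07 (adjusted p = 1.36e-17) and -2.64 ± 0.09 (adjusted p = 5.89e-15). The calls of C1qb and C1qc each depended on single libraries: without any 1 of the libraries labelled MSM of LN CIS their adjusted p was 0.0512 to 0.0692, and C1qc also missed the limit without MSM library 2 of LN PBS (adjusted p = 0.0663). In the TDLN none of the 3 chains passed as labelled in either kind. With those 4 left out, they fell in MSM of the TDLN on the log2 scale (-3.75 for C1qa, -3.44 for C1qb and -3.25 for C1qc) and rose in SSM of the TDLN (1.80, 1.71 and 1.80). C1q thus moved in opposite directions in the 2 kinds in the TDLN once those libraries were left out, and no test compared the 2 kinds' responses. Between MSM and SSM without the 4 libraries, C1qa was lower in MSM in LN PBS (-2.71 ± 0.07, adjusted p = 3.65e-21) and in TDLN CIS (-4.51 ± 0.08, adjusted p = 3.18e-24), and higher in MSM in TDLN PBS (1.06 ± 0.06, adjusted p = 7.85e-15).

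**Figure D2:**
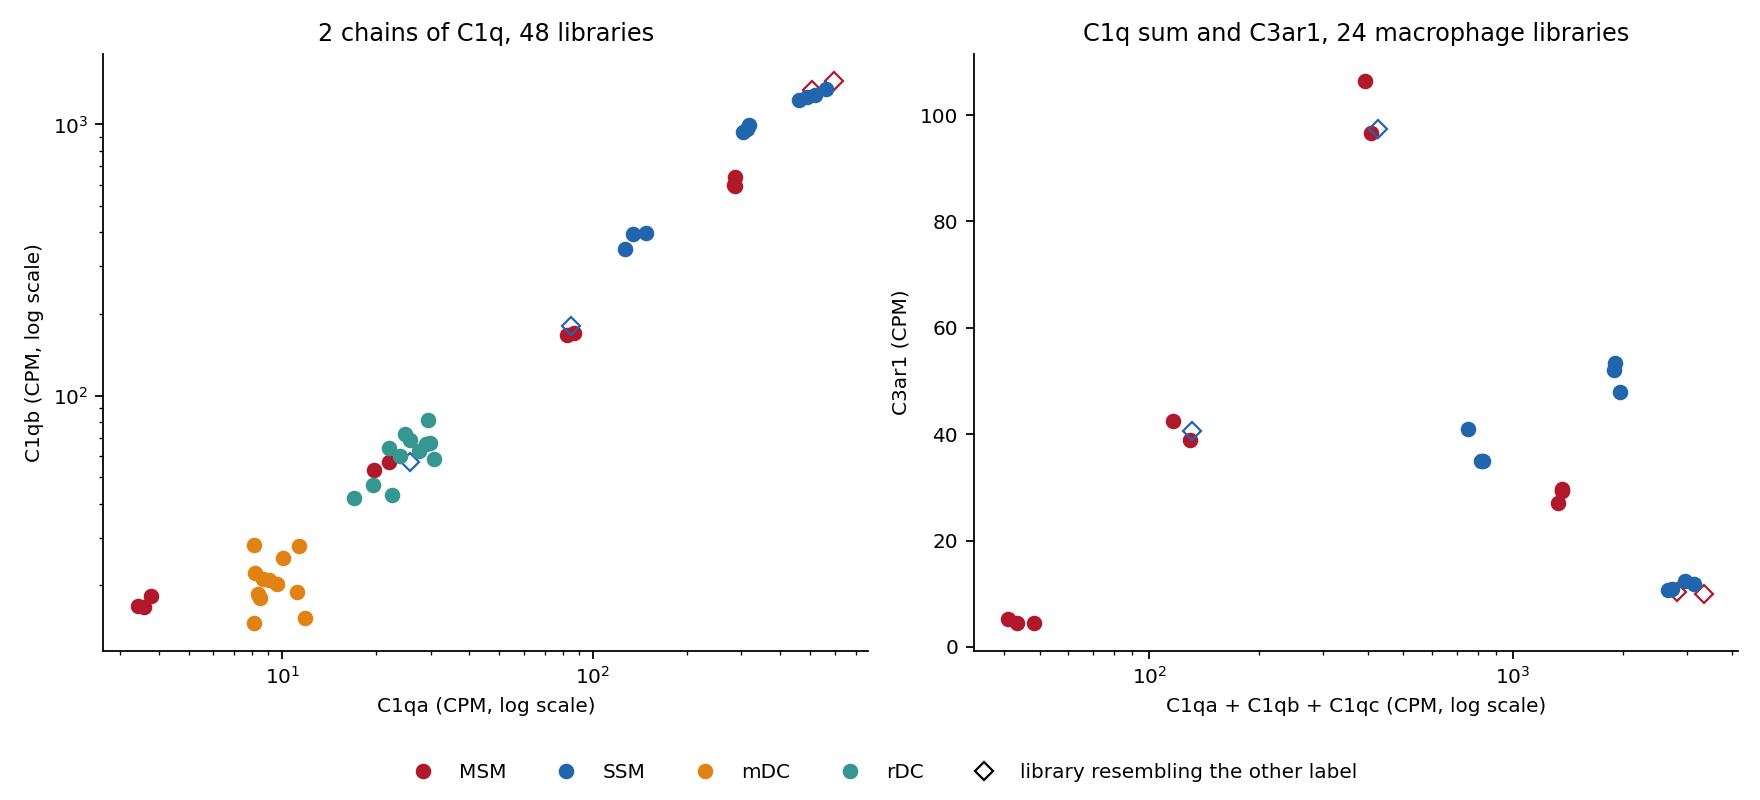
Left, C1qb against C1qa in CPM on log axes for all 48 libraries; right, C3ar1 in CPM on a linear axis against the sum of the 3 C1q chains in CPM on a log axis for the 24 macrophage libraries, with kinds by colour and open diamonds for the 4 libraries that resemble the other label. C1qa and C1qb rise together from 3.44 CPM of C1qa to 594, and the libraries with the highest C1q hold 9.98 to 12.4 CPM of C3ar1 while the 3 with the most C3ar1 hold 96.6 to 106.

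C4b and C2 follow C1q in the classical pathway, C4b as the part that attaches to the target and C2 as the protease. Both lie in the same stretch of chromosome 17, C4b at chr17:34728380-34743882 and C2 at chr17:34862604-34898265. C4b was at 0 counts in all 3 libraries of MSM of TDLN PBS. In SSM of the same condition it was at 18.6, 26.6 and 25.5 CPM, at least 62.45-fold higher. MSM of TDLN CIS held 4.68 and 4.88 CPM in libraries 2 and 3 and 16.6 in library 1. MSM of LN PBS held 24.7 and 18.9 CPM in libraries 1 and 3 and 15.2 in library 2. Counting 3 counts per library as the limit that 0 allows (0.377 CPM on average), C4b was at least 12.7-fold higher in libraries 2 and 3 of MSM of TDLN CIS than in MSM of TDLN PBS, and at least 23.1-fold with library 1, which holds most of that level. In MSM of LN PBS it was at least 57.8-fold higher in libraries 1 and 3, and at least 52-fold with library 2. Both differences passed the test as labelled (adjusted p = 0.000234 and 0.000113) and without the 4 libraries (adjusted p = 2.82e-08 and 3.02e-11). The near-identical copy C4a had 0, 0 and 1 counts in MSM of TDLN PBS and 65, 2 and 73 in MSM of LN PBS, and reads could be split between the copies, so the level of C4b alone is uncertain. Of 7 mast cell markers 5 were at 0 in those 3 libraries, as were 4 of 6 stromal and endothelial markers, and the part of such cells in the C4b level was not tested. The summed levels of those lists in MSM of TDLN PBS were 50.2 to 59.8 CPM and 48.8 to 49.995 CPM, against 1873 to 3371 and 86.4 to 240.05 in MSM of TDLN CIS.

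In SSM, C4b rose with cisplatin in the LN and fell in the TDLN. SSM of LN PBS held 16.8 and 13.6 CPM in libraries 1 and 3 and 18.7 in library 2. SSM of LN CIS held 54.4, 57.9 and 56.2 CPM, the highest C4b of the 8 macrophage groups and without overlap with any other. The rise with cisplatin was 1.76 ± 0.26 (adjusted p = 0.00315) on the log2 scale, and 1.91 without the 4 libraries. In the TDLN C4b of SSM went from 18.6, 26.6 and 25.5 CPM with PBS to 12.2 and 9.54 CPM in libraries 1 and 2 and 5.58 in library 3 with cisplatin (-1.38 ± 0.26, adjusted p = 0.00571; -1.13 without the 4 libraries). The difference between the nodes' responses passed the test, at -3.14 ± 0.37 (adjusted p = 0.00061), and was -3.03 without the 4 libraries. Cr2, Itgam and C5ar1 of SSM of LN CIS lay nearer to MSM than to SSM of LN PBS, as given below. The part of this in the C4b changes was not tested.

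C2, like C1q, was low in MSM and high in SSM of LN PBS. In MSM it was at 10.8 and 11.98 CPM in libraries 1 and 3 and 48.8 in library 2, and in SSM at 43.95 and 45.1 CPM in libraries 1 and 3 and 11.6 in library 2. The libraries labelled MSM of LN CIS held 10.03, 9.09 and 8.08 CPM and SSM of LN CIS 38.6, 37.3 and 33.9, which did not overlap. MSM of TDLN PBS held 36.6, 31.8 and 33.3 CPM against 14.3, 16.7 and 17.4 in SSM. Cisplatin gave no called change of C2 in macrophages as labelled. Without the 4 libraries C2 fell in MSM of the TDLN (-0.65 ± 0.15, adjusted p = 0.00102) and rose in SSM of the TDLN (1.08 ± 0.11, adjusted p = 1.17e-07). C2 and Cfb lie 85 bases apart on the same strand, and the gene model Gm20547, which spans both, took 0 to 75 counts in macrophage libraries, so the split of reads among the 3 is uncertain.

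C3, whose cleavage is the step the pathways share, lies at chr17:57203970-57228136. In MSM of TDLN PBS it was at 548, 528 and 559.6 CPM. In MSM of TDLN CIS it was at 204 and 207 CPM in libraries 2 and 3 and 179.6 in library 1. In SSM of TDLN PBS it was at 369, 429 and 414. SSM of TDLN CIS held 178 and 175 CPM in libraries 1 and 2 and 192 in library 3. In neither kind did the PBS and cisplatin libraries of the TDLN overlap, and the 4 libraries that resemble the other label differed from the rest of their group by less than the gap between treatments. The log2 fold change in the TDLN was -1.45 ± 0.11 (adjusted p = 1.2e-05) in MSM and -1.16 ± 0.10 (adjusted p = 0.000218) in SSM, and -1.38 and -1.20 without the 4 libraries. The summed macrophage markers went with this in MSM, from 22822 to 23200.1 CPM with PBS to 8067 to 14125 with cisplatin, while in SSM they were 12408 to 12818 and 8124 to 13650.4; their part in the C3 result was not tested. The summed neutrophil markers were 10369.8 to 10746 CPM in MSM of TDLN PBS and 796 to 7518 in MSM of TDLN CIS, and 169.6 to 209.6 and 735 to 7526 in SSM.

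In the LN, C3 was at 394 and 399 CPM in libraries 1 and 3 and 341 in library 2 in MSM with PBS and at 162, 158 and 168 CPM in the libraries labelled MSM of LN CIS, a change of -1.22 ± 0.11 (adjusted p = 2.76e-05), or -1.29 without the 4 libraries. SSM of the LN held 351 and 349 CPM in libraries 1 and 3 and 366 in library 2 with PBS and 319, 316 and 321 with cisplatin, a narrow gap that the test did not call as labelled or without the 4 libraries (adjusted p = 0.305 and 0.125). The response of C3 in SSM differed between the nodes, at -0.99 ± 0.15 (adjusted p = 0.00164), and at -1.09 without the 4 libraries. With PBS, MSM had more C3 in TDLN than in LN (0.51 ± 0.11, adjusted p = 0.00506) and more than SSM in the TDLN (0.43 ± 0.09, adjusted p = 0.000873). These 2 differences were 0.44 and 0.43 without the 4 libraries. The 8 macrophage groups fell in the order MSM of TDLN PBS, then SSM of TDLN PBS, MSM of LN PBS and SSM of LN PBS, whose ranges overlapped from each to the next, then SSM of LN CIS, then MSM and SSM of TDLN CIS, which overlapped, and last the libraries labelled MSM of LN CIS.

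Cfb encodes factor B, the protease of the alternative pathway, and lies at chr17:34856374-34862518. Its levels in MSM were 1218, 1180.3 and 1188 CPM in TDLN PBS. In TDLN CIS, MSM held 271 and 276 CPM in libraries 2 and 3 and 433 in library 1. SSM held 889, 969 and 982 CPM in TDLN PBS. In TDLN CIS, SSM held 406 and 415 CPM in libraries 1 and 2 and 281 in library 3. The groups did not overlap in either kind, and the change was -1.85 ± 0.18 (adjusted p = 5.64e-05) in MSM and -1.37 ± 0.16 (adjusted p = 0.000567) in SSM on the log2 scale. Once the 4 libraries were dropped, it was -2.10 and -1.20. In the LN, MSM held 469.97 and 463 CPM in libraries 1 and 3 and 586 in library 2 with PBS, and the libraries labelled MSM of LN CIS 169.8, 152 and 151 CPM (-1.68 ± 0.18, adjusted p = 7.68e-05; -1.57 without the 4 libraries). SSM of the LN held 572 and 583 CPM in libraries 1 and 3 and 438 in library 2 with PBS and 657, 649 and 675 CPM with cisplatin, and that difference passed only without the 4 libraries (0.22, adjusted p = 0.00208, against 0.30, adjusted p = 0.234 as labelled). The nodes' responses differed in SSM (-1.67 ± 0.22, adjusted p = 0.0011; -1.42 without the 4 libraries). Cfb was higher in TDLN than in LN with PBS in both kinds, by 1.22 ± 0.18 (adjusted p = 0.00063) in MSM and 0.84 ± 0.16 (adjusted p = 0.0064) in SSM, or 1.34 and 0.74 without the 4 libraries. From high to low the groups ran MSM of TDLN PBS, SSM of TDLN PBS, SSM of LN CIS, SSM and MSM of LN PBS, SSM and MSM of TDLN CIS, and the libraries labelled MSM of LN CIS; within each of the joined pairs the ranges overlapped and all other neighbours were apart.

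Cfp encodes properdin, the one positive regulator among the members, and lies at chrX:20925454-20931555. In MSM of TDLN PBS it was at 995, 939 and 977 CPM. In MSM of TDLN CIS it was at 271 and 272 CPM in libraries 2 and 3 and 752 in library 1. The change was -1.15 ± 0.39 (adjusted p = 0.0395), and -1.81 ± 0.05 (adjusted p = 4.92e-15) without the 4 libraries. The call as labelled was lost on leaving out any of 8 single libraries (adjusted p = 0.0611 to 0.129). It was also lost with the compared libraries only (adjusted p = 0.0785) and with the replicate number as a block in the model (adjusted p = 0.0555). In MSM of LN PBS Cfp was at 389.7 and 406 CPM in libraries 1 and 3 and 787 in library 2, and the libraries labelled MSM of LN CIS held 143, 150.03 and 151 CPM (-1.83 ± 0.40, adjusted p = 0.00451; -1.42 without the 4 libraries). SSM of LN PBS held 710.4 and 712 CPM in libraries 1 and 3 and 391 in library 2, and SSM of LN CIS 776, 803 and 797 CPM. In the TDLN, SSM held 508, 583 and 591 CPM with PBS and 671 and 687 CPM in libraries 1 and 2 and 288 in library 3 with cisplatin. No comparison of Cfp between treatments or nodes passed in SSM as labelled. With those 4 left out, the change with cisplatin in SSM of the TDLN was 0.28 ± 0.06 (adjusted p = 0.000513), against -0.04 as labelled.

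C3ar1, the receptor, lies at chr6:122847138-122856161 and ran against C1q across the libraries with PBS in the LN and cisplatin in the TDLN. MSM of LN PBS held 106 and 96.6 CPM in libraries 1 and 3 and 9.98 in library 2. SSM of LN PBS held 11.8 and 12.4 CPM in libraries 1 and 3 and 97.4 in library 2. MSM of TDLN CIS held 42.5 and 38.9 CPM in libraries 2 and 3 and 10.3 in library 1. SSM of TDLN CIS held 10.9 and 10.7 CPM in libraries 1 and 2 and 40.7 in library 3. So the libraries that resembled MSM were high in the receptor and low in C1q, and the others the reverse. The libraries labelled MSM of LN CIS were low in both, with 4.59, 5.28 and 4.40 CPM of C3ar1. SSM of LN CIS held 52.1, 47.97 and 53.4 CPM, MSM of TDLN PBS 29.7, 29.3 and 26.97 and SSM of TDLN PBS 41.1, 35.01 and 35.02. Cr2, Itgam and C5ar1 of SSM of LN CIS lay nearer to MSM than to SSM of LN PBS, as given below. The part of this in its C3ar1 level was not tested. Cisplatin in the LN gave -3.90 ± 0.79 (adjusted p = 0.00334) in MSM, and -4.41 without the 4 libraries. As labelled SSM did not pass in the LN or the TDLN, and without the 4 libraries C3ar1 rose in SSM of the LN (2.10 ± 0.11, adjusted p = 7.26e-11) and fell in SSM of the TDLN (-1.77 ± 0.12, adjusted p = 8.55e-10). Between kinds without those libraries it was higher in MSM by 3.02 in LN PBS and by 1.90 in TDLN CIS on the log2 scale.

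**Figure D3:**
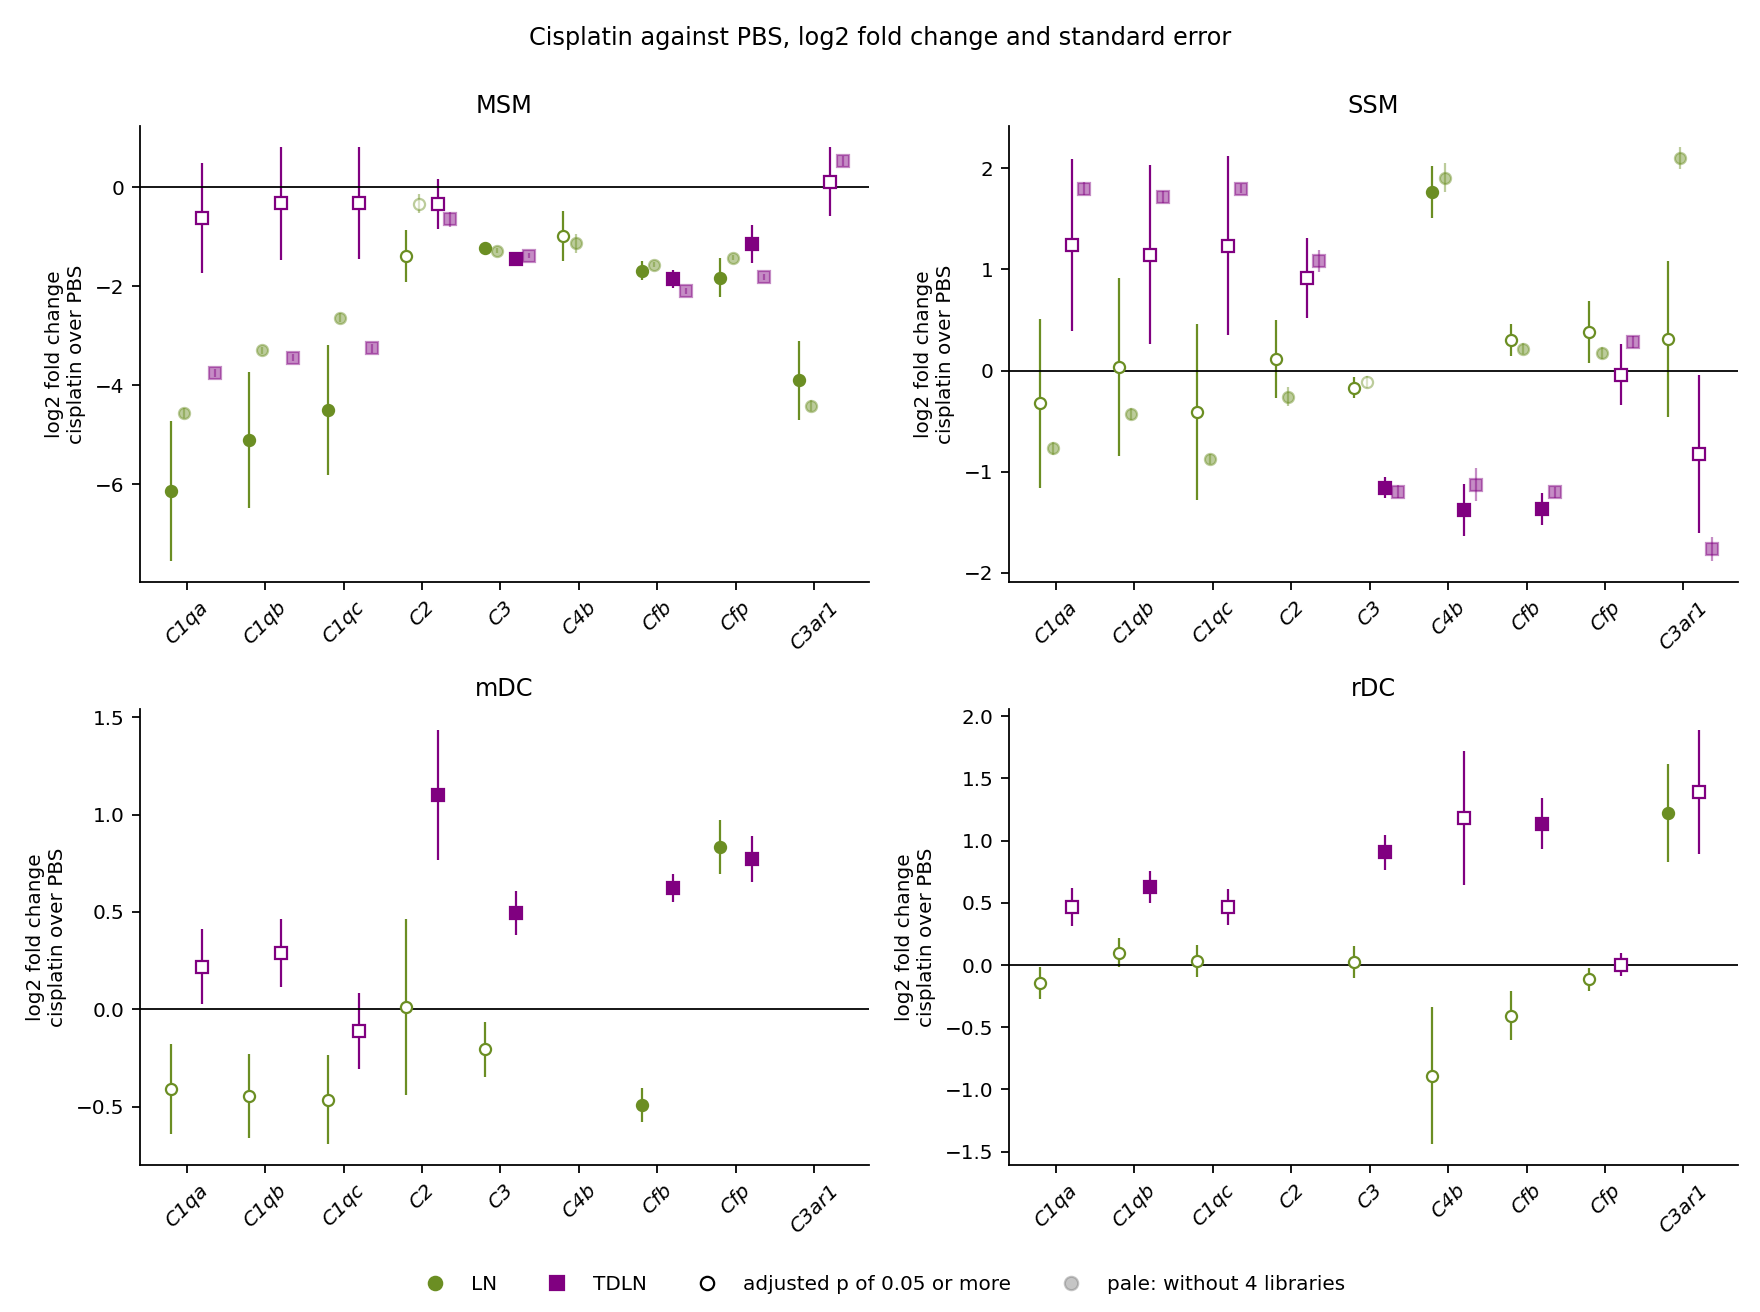
Log2 fold change of cisplatin over PBS (y axis, with a scale of its own per cell kind) and its SE for each complement gene (x axis) in the 4 cell kinds; circles are LN and squares TDLN, open symbols did not pass 0.05, and pale symbols are the values without the 4 libraries. C4b of MSM in the TDLN is not drawn because its PBS libraries were at 0, and genes below the filter on low counts have no point. In the TDLN C3 and Cfb lie below 0 in MSM and SSM and above 0 in mDC and rDC.

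In dendritic cells the model kept 7 of the 9 members in mDC, where C4b and C3ar1 fell below the filter on low counts, and 8 in rDC, where C2 did. Cisplatin in the TDLN was followed in mDC by 4 of 7 higher and 0 lower against a background of 27.3%, and in rDC by 3 of 8 higher and 0 lower against 1.01%. Library 2 of rDC of TDLN CIS stood apart from its group; without it the members called in rDC were again 3 higher and 0 lower, against 4.26% of all genes. The median log2 fold change in rDC was 0.77 for the members and 0.00 for all genes tested, and in mDC 0.50 for the members and -0.01 for all genes tested. In the LN cisplatin gave 1 of 7 higher and 1 lower in mDC against 11%, and 1 of 8 higher and 0 lower in rDC against 17.9%. TDLN against LN gave, with PBS, 0 of 7 higher and 1 lower in mDC against 29.1% and 1 of 8 higher and 5 lower in rDC against 27%, and with cisplatin 2 of 7 higher and 0 lower against 14.8% and 4 of 8 higher and 0 lower against 14.8%. The difference between the nodes' responses was called for 2 of 7 higher and 0 lower in mDC against 15.6% and for 2 of 8 higher and 0 lower in rDC against 5.31%, in both kinds C3 and Cfb.

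C3 in mDC was at 33.5, 30.8 and 35.3 CPM in TDLN PBS and 47.3, 39.3 and 42.3 in TDLN CIS, without overlap (0.50 ± 0.11, adjusted p = 0.00214). The PBS libraries there are deep ones. The call of C3 was lost with no filter on low counts, which changes the scaling. It was then 0.22 (adjusted p = 0.194), and the median of all genes tested was 0.25 in place of -0.01. In the LN it was at 32.8, 32.02 and 39.3 CPM with PBS and 32.5, 32.5 and 27.2 with cisplatin, which overlapped. Higher levels were found in rDC, with 61.7, 59.3 and 63.1 CPM in TDLN PBS and 108, 142 and 94.5 in TDLN CIS (0.91 ± 0.14, adjusted p = 0.00164). Without library 2 of rDC of TDLN CIS that rise was 0.72 ± 0.11, adjusted p = 0.000524. The LN of rDC held 97.9, 75.7 and 91.2 CPM with PBS and 89.2, 84.2 and 84.1 with cisplatin, again overlapping. The nodes' responses differed by 0.70 ± 0.18 (adjusted p = 0.00993) in mDC and 0.88 ± 0.19 (adjusted p = 0.00976) in rDC. In mDC that call too was lost with no filter on low counts, at 0.38 (adjusted p = 0.224). With PBS, C3 of rDC was lower in TDLN than in LN (-0.47 ± 0.14, adjusted p = 0.0174; -0.73 with no filter), a call that was lost without rDC library 1 of LN PBS (adjusted p = 0.0696), library 3 of LN PBS (0.0513) or library 1 of TDLN PBS (0.0546).

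Cfb moved in the same way in mDC of the TDLN, from 88.2, 97.4 and 94.3 CPM with PBS to 140.03, 137 and 119.6 with cisplatin (0.63 ± 0.07, adjusted p = 9.76e-07; 0.35 with no filter on low counts). In mDC of the LN it moved the other way, from 126, 119.7 and 124 CPM to 84.95, 94.9 and 91.1 (-0.49 ± 0.09, adjusted p = 0.000355), and the groups did not overlap in either node. The difference between nodes was 1.12 ± 0.11 (adjusted p = 2.49e-07). Resident cells held 45.8, 46.9 and 44.9 CPM in TDLN PBS and 108, 97.8 and 97.2 in TDLN CIS, without overlap (1.14 ± 0.21, adjusted p = 0.00826), and 1.16 ± 0.22, adjusted p = 0.00334 without library 2 of TDLN CIS. That call was lost without rDC library 1 (adjusted p = 0.0579) or 3 (0.0574) of TDLN PBS. In the LN of rDC Cfb was at 88.4, 41.8 and 82.1 CPM with PBS, where library 2 lies apart from the others, and at 53.5, 49.8 and 50.8 with cisplatin. That change was not called with all libraries. Without library 2 of LN PBS it was -0.70 ± 0.10, adjusted p = 0.000319. The nodes' responses differed in rDC by 1.54 ± 0.29 (adjusted p = 0.00282), and by 1.83 ± 0.14, adjusted p = 5.55e-07 without library 2 of LN PBS.

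Of the members, properdin gave the largest log2 differences between mDC and rDC in each condition. Cfp was at 26.97 to 61.6 CPM in the 12 libraries of mDC and at 269.6 to 506 in those of rDC, and mDC was lower in every condition, with log2 differences of -3.43 in LN PBS, -2.38 in LN CIS, -3.95 in TDLN PBS and -3.30 in TDLN CIS. Within mDC it rose with cisplatin in both nodes, from 29.6, 26.97 and 28.4 CPM to 50.7, 45.2 and 61.6 in the LN (0.83 ± 0.14, adjusted p = 0.000225) and from 27.2, 30.9 and 27.3 to 47.7, 44.9 and 41.5 in the TDLN (0.77 ± 0.12, adjusted p = 3.48e-05; 0.50 with no filter on low counts). The PBS and cisplatin libraries did not overlap in either node. In rDC Cfp was at 319.6, 284 and 316 CPM in LN PBS, 273, 270.4 and 269.6 in LN CIS, 433, 451 and 436 in TDLN PBS and 398, 506 and 420.3 in TDLN CIS, so it was higher in TDLN than in LN with PBS (0.58 ± 0.09, adjusted p = 0.000228; 0.31 with no filter) and with cisplatin (0.69 ± 0.09, adjusted p = 8.29e-05), and cisplatin itself gave no called change.

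The C1q chains were also higher in rDC than in mDC. C1qa was at 17.1 to 30.7 CPM in rDC and 8.11 to 11.8 in mDC, C1qb at 41.8 to 81.3 and 14.5 to 28.1, and C1qc at 26.9 to 54.6 and 9.65 to 25.6. The ranges did not overlap for any of the 3 chains, and mDC was lower in all 4 conditions (C1qa -1.38, -1.54, -1.18 and -1.56 on the log2 scale in LN PBS, LN CIS, TDLN PBS and TDLN CIS). The summed macrophage markers were 694 to 1205 CPM in mDC and 2028 to 3105 CPM in rDC, and their part in this difference was not tested. In rDC with PBS the chains were lower in TDLN than in LN, at -0.48 ± 0.14 (adjusted p = 0.0174) for C1qa, -0.51 ± 0.12 (adjusted p = 0.00651) for C1qb and -0.58 ± 0.14 (adjusted p = 0.005) for C1qc. With no filter on low counts these were -0.74, -0.77 and -0.85. The call of C1qa was lost without rDC library 2 of LN PBS (adjusted p = 0.051) or library 1 (0.0575) or 2 (0.0667) of TDLN PBS, and with the deep libraries thinned (0.076). C1qb rose with cisplatin in rDC of the TDLN, from 47.02, 41.8 and 43.1 CPM to 58.5, 81.3 and 64.3 (0.63 ± 0.13, adjusted p = 0.0229), or 0.47 ± 0.11, adjusted p = 0.0199 without library 2 of TDLN CIS. That call was lost without any 1 of the 3 libraries of rDC of TDLN PBS (adjusted p = 0.0684, 0.119 and 0.139) and with the compared libraries only (0.107).

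Comparing mDC with rDC, 2 of 9 higher and 5 lower were called in LN PBS against a background of 66.6%, 2 of 9 higher and 5 lower in LN CIS against 54.9%, 2 of 9 higher and 5 lower in TDLN PBS against 72.4% and 2 of 9 higher and 6 lower in TDLN CIS against 56.1%. C3 was lower in mDC throughout, at -1.34, -1.47, -0.89 and -1.42 on the log2 scale in that order of conditions. Cfb and C2, the proteases of the alternative and classical enzymes, were the 2 members higher in mDC. Cfb differed by 0.79, 0.81, 1.03 and 0.39, the first of them 0.35 with no filter on low counts. Its call in TDLN CIS was lost without mDC library 1 (adjusted p = 0.113) or 2 (0.0907) or rDC library 3 (0.0917) of that condition. C2 was low in both, at 1.76 to 6.28 CPM in mDC and 0.289 to 3.09 in rDC, and mDC was higher by 1.92, 2.14, 1.02 and 1.01 on the log2 scale. The call of C2 was lost without any of 4 libraries in TDLN PBS (adjusted p = 0.0766 to 0.174) and any of 15 in TDLN CIS (0.0502 to 0.148). Both calls were also lost with DESeq2 (adjusted p = 0.0708 and 0.0557). They were lost with no filter on low counts (adjusted p = 0.0734 and 0.133). Thinning the deep libraries ended them too (adjusted p = 0.149 and 0.0767). Median-ratio scaling ended the call in TDLN PBS (adjusted p = 0.065), and the replicate block that in TDLN CIS (adjusted p = 0.0523). C2 rose with cisplatin in mDC of the TDLN from 3.04, 2.30 and 2.79 CPM to 6.28, 5.20 and 4.53 (1.10 ± 0.33, adjusted p = 0.0161), a call lost without mDC library 1 of TDLN CIS (adjusted p = 0.0993) or library 2 of TDLN PBS (0.0715), with no filter (0.0998) and with the deep libraries thinned (0.104).

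C4b and C3ar1 were near the lowest levels measured in dendritic cells. C4b was at 1.06 to 5.57 CPM in mDC and 0.289 to 5.41 in rDC, and the ranges of the 2 kinds overlapped. C3ar1 was at 0.739 to 6.34 CPM in mDC and 0.945 to 6.04 in rDC, and was lower in mDC in TDLN CIS (-1.3 ± 0.52, adjusted p = 0.0353), a call lost without any of 3 libraries (adjusted p = 0.0587 to 0.2). There was a rise in rDC of the LN, from 2.53, 1.41 and 1.94 CPM with PBS to 5.11, 3.47 and 4.73 with cisplatin (1.22 ± 0.39, adjusted p = 0.0396), a call lost on leaving out any of 6 single libraries (adjusted p = 0.051 to 0.15). Other settings ended both calls of C3ar1: DESeq2 (adjusted p = 0.0574 between the kinds and 0.0848 for the rise) and no filter (0.172 and 0.107). Thinning the deep libraries ended the call of the rise (adjusted p = 0.215).

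**Figure D4:**
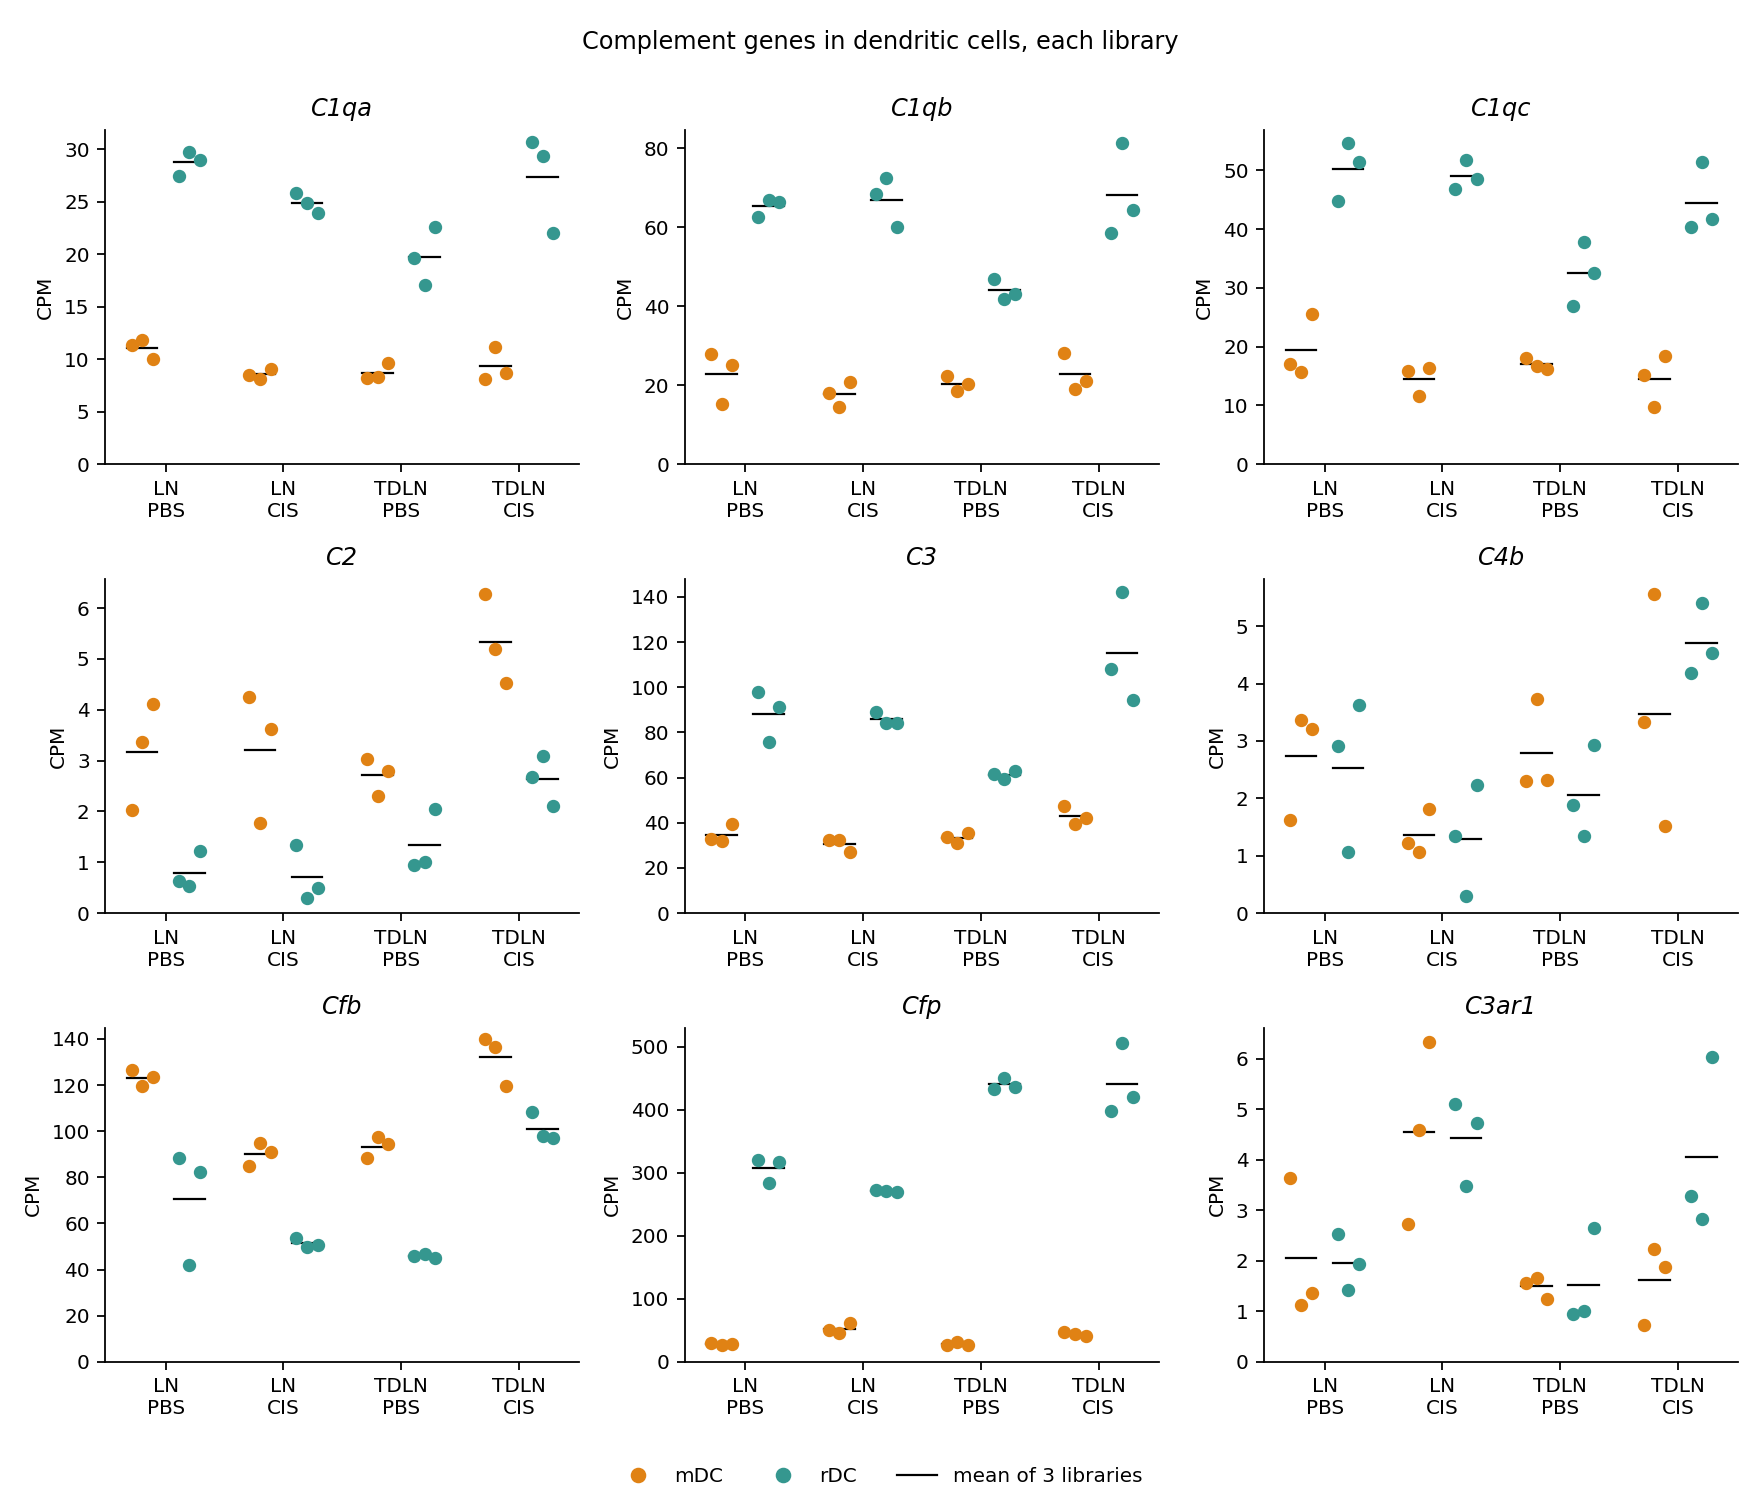
Level of each complement gene in CPM (y axes, linear, a scale of its own per gene) in the 24 dendritic cell libraries by node and treatment (x axes), with mDC in orange, rDC in teal and bars for means of 3 libraries. The C1q chains, C3 and Cfp are higher in rDC than in mDC in all 4 conditions, and in the TDLN C3 and Cfb are higher with cisplatin than with PBS in both kinds.

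Between nodes, the other called members were these. With cisplatin, 7 members were higher in MSM of the TDLN than in the libraries labelled MSM of LN CIS, at 5.66 ± 1.39 (adjusted p = 0.00867) for C1qa, 4.80 ± 1.35 (adjusted p = 0.0161) for C1qb, 3.94 ± 1.27 (adjusted p = 0.0291) for C1qc, 1.54 ± 0.52 (adjusted p = 0.0359) for C2, 1.05 ± 0.18 (adjusted p = 0.0013) for Cfb, 1.54 ± 0.39 (adjusted p = 0.0103) for Cfp and 2.68 ± 0.76 (adjusted p = 0.0171) for C3ar1. Leaving out the 4 libraries, the same 7 values were 2.54, 1.68, 1.01, 1.24, 0.80, 0.88 and 3.10. Single libraries ended 4 of these calls: C1qb without any of 4 libraries (adjusted p = 0.06 to 0.0996), C1qc without any of 4 libraries (adjusted p = 0.0857 to 0.316), C2 without any of 8 libraries (adjusted p = 0.0513 to 0.11) and C3ar1 without any of 4 libraries (adjusted p = 0.0502 to 0.0613). C1qc also missed the limit with the compared libraries only (adjusted p = 0.0557). With the replicate block, C1qb, C1qc and C2 missed it (adjusted p = 0.061, 0.0998 and 0.0552). In SSM with cisplatin, 3 members were lower in the TDLN, with log2 differences of -0.80 ± 0.10 (adjusted p = 0.000984) for C3, -2.62 ± 0.27 (adjusted p = 0.000303) for C4b and -0.84 ± 0.16 (adjusted p = 0.00625) for Cfb. These were -0.85, -2.37 and -0.68 without the 4 libraries. In mDC, Cfb was lower in the TDLN with PBS (-0.56 ± 0.08, adjusted p = 8.2e-06), a call lost with no filter on low counts at -0.20 (adjusted p = 0.0643), and higher there with cisplatin (0.56 ± 0.08, adjusted p = 2.96e-05). C3 of mDC was higher in the TDLN with cisplatin (0.48 ± 0.13, adjusted p = 0.0151), which was lost without mDC library 3 of LN CIS (adjusted p = 0.0668) or library 1 of TDLN CIS (0.0808).

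In rDC with cisplatin, Cfb was higher in TDLN than in LN by 0.97 ± 0.20 (adjusted p = 0.00387), C3 by 0.42 ± 0.14 (adjusted p = 0.0489) and C4b by 1.81 ± 0.58 (adjusted p = 0.0433). The last 2 were lost without library 2 of TDLN CIS, the one that stood apart, at 0.24 ± 0.11, adjusted p = 0.143 and 1.71 ± 0.64, adjusted p = 0.077. Over the 9 single libraries whose absence ended the call of C3 the adjusted p ran from 0.0528 to 0.143, and over the 10 for C4b from 0.052 to 0.155. With the compared libraries only, both missed the limit too (adjusted p = 0.119 and 0.0502). The replicate block also ended the call of C3 (adjusted p = 0.0788). With PBS, Cfb of rDC was lower in the TDLN (-0.58 ± 0.20, adjusted p = 0.0406), and its call was lost without any of 5 single libraries (adjusted p = 0.0791 to 0.171) or with the deep libraries thinned (0.0772).

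The other genes of the pathway were read from a list of 43: the other components of the classical, lectin and terminal steps, the regulators and the receptors. Of these, 16 reached an average of 10 CPM in some group and 9 reached 1 CPM in none. In macrophages 25 of the 43 were tested within a kind. The share after each pair of counts is that of all genes tested. Values for MSM of the LN with cisplatin rest on the libraries labelled MSM of LN CIS. After cisplatin the test called 7 higher and 1 lower against 37.1% in MSM of the TDLN, 3 higher and 9 lower against 43.4% in MSM of the LN, 7 higher and 0 lower against 23% in SSM of the TDLN and 1 higher and 3 lower against 13.3% in SSM of the LN. Without the 4 libraries 26 were tested and these were 13 higher and 5 lower against 69%, 6 higher and 10 lower against 74%, 13 higher and 9 lower against 71.1% and 6 higher and 13 lower against 60%. Their median log2 fold change in MSM of the LN was -2.87 against -0.15 for all genes tested, and without the 4 libraries -0.07 against -0.08 for all genes tested. In SSM of the TDLN it was 1.49 against 0.03 for all genes tested, and without the 4 libraries 0.50 against -0.02 for all genes tested. Between MSM and SSM 29 were tested, with 5 higher and 13 lower against 49.7% in MSM in LN CIS and 6 higher and 4 lower against 40.8% in TDLN PBS. With those 4 left out, 31 were tested, with 5 higher and 17 lower against 72.4% and 12 higher and 11 lower against 67.1%. For TDLN against LN with PBS the numbers were 1 higher and 5 lower against 38.2% in MSM and 0 higher and 6 lower against 19.7% in SSM as labelled. Leaving out the 4 libraries, they were 10 higher and 8 lower against 69.7% and 5 higher and 16 lower against 67.8%. With cisplatin they were 12 higher and 0 lower against 43.3% in MSM and 5 higher and 0 lower against 17.4% in SSM as labelled. Without the same libraries they were 17 higher and 7 lower against 74.4% and 10 higher and 9 lower against 61.9%, so the lower side was empty only as labelled.

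In dendritic cells 12 of the 43 were tested in mDC, where cisplatin gave 1 higher and 1 lower against 27.3% in the TDLN and 3 higher and 1 lower against 11% in the LN. Of 15 tested in rDC edgeR called 0 higher and 0 lower against 1.01% in the TDLN, where 2 had an unadjusted p under 0.05 and DESeq2 called 0. In the LN of rDC it called 3 higher and 1 lower against 17.9%. TDLN against LN with PBS gave 2 higher and 6 lower against 29.1% in mDC and 3 higher and 2 lower against 27% in rDC, and with cisplatin 1 higher and 5 lower against 14.8% and 3 higher and 3 lower against 14.8%. Between mDC and rDC 16 were tested, with 4 higher and 9 lower against 66.6% in mDC in LN PBS, 3 higher and 8 lower against 54.9% in LN CIS, 3 higher and 11 lower against 72.4% in TDLN PBS and 3 higher and 9 lower against 56.1% in TDLN CIS.

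Among the receptors, Cr2 (CD21, the receptor for C3d carried by B cells and follicular dendritic cells) was at 258 to 283 CPM in the libraries labelled MSM of LN CIS, while MSM of LN PBS held 5.22 to 5.34 CPM in libraries 1 and 3 and 205 in library 2. SSM of LN PBS held 212 to 229 CPM in libraries 1 and 3 and 2.70 in library 2. SSM of LN CIS held 2.42 to 4.51 CPM of Cr2. Cr2 is 1 of the 7 B cell markers whose sums are given above, and the part of B cells in its level was not tested. Itgam (CD11b, a chain of complement receptor 3) was at 665 to 683 CPM in libraries 1 and 3 and 285 in library 2 in MSM of LN PBS and at 20.4 to 32.2 in the libraries labelled MSM of LN CIS. In SSM it was at 289 to 294 CPM in libraries 1 and 3 of LN PBS and at 541.5 to 552 in LN CIS. C5ar1, the receptor for C5a, was at 163 to 165 CPM in libraries 1 and 3 and 28.2 in library 2 in MSM of LN PBS and at 15.3 to 17.2 in the libraries labelled MSM of LN CIS. In SSM it was at 25.5 to 27.5 CPM in libraries 1 and 3 of LN PBS and at 165 to 180 in LN CIS. For Cr2, Itgam and C5ar1, SSM of LN CIS thus lay nearer to MSM than to SSM of LN PBS. For C1qb and C2 it lay nearer to SSM. The part of this in the changes of SSM in the LN was not tested. Vsig4 (CRIg), a macrophage receptor for C3b, had 0 counts in all 24 macrophage libraries, which allows up to 0.292 to 0.43 CPM by library, taking 3 counts as the limit that a count of 0 allows.

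The genes most like C1qa, C3, Cfb and Cfp were sought among protein-coding genes averaging at least 10 CPM, by Pearson correlation of log2(CPM + 1) over the 24 libraries of a table. These correlations describe libraries that share groups, and in macrophages the 4 libraries above, so no p is given. Among 8943 genes in macrophages, the nearest to C1qa were P2ry13 (r = 0.986), Nacc2 (r = 0.978) and Txn1 (r = 0.976). For C3 they were Spen (r = 0.944), Lgals3bp (r = 0.92) and Mov10 (r = 0.916), for Cfb Pex26 (r = 0.966), Fancc (r = 0.954) and Ywhab (r = 0.95) and for Cfp Itpripl2 (r = 0.987), Naxd (r = 0.97) and Lamp1 (r = 0.969). Among 8785 genes in dendritic cells, the nearest to C1qa were Plekhg3 (r = 0.962), Sms (r = 0.96) and Sft2d1 (r = 0.957), to C3 Clasrp (r = 0.936), Bcl2l11 (r = 0.935) and Irgm1 (r = 0.935) and to Cfb Osm (r = 0.841), Ip6k3 (r = 0.802) and Mmp14 (r = 0.802). None of these nearest genes of C1qa, C3 and Cfb was shared between the 2 tables.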

How the data were processed

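Wild-type mouse cells gave 48 libraries in 16 groups of 3, sorted as the opening describes. Per the labels' protocols the libraries were made with a TruSeq stranded mRNA kit, and per the submitters' processing notes the authors used STAR, RSEM 1.3.0 and DESeq2 1.38.3 with GRCm38. The expected counts used for every test were deposited by the authors as whole numbers in a macrophage table and a dendritic cell table. The authors also deposited TPM for the dendritic cells. For the macrophages they deposited TPM reduced to whole numbers, taken here as a score. Both served only to check columns. In the dendritic cell table, a column name with tumor was taken as TDLN and, by elimination, one with wild type as LN.

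The tables held 55487 genes, 99.5% with a symbol in GENCODE vM21. Genes were filtered with filterByExpr by group and scaled by TMM. edgeR 4.0.16 quasi-likelihood tests used 1 model per cell kind (12 libraries, 4 groups) and 1 per table (24 libraries) for MSM against SSM and mDC against rDC, with Benjamini-Hochberg adjustment over all genes tested and a limit of 0.05. The SE was the size of the log2 fold change divided by the square root of F. Scripts were tested on simulated data. R 4.3.3, limma 3.58.1 and DESeq2 1.42.0 were used.  Alternatives were DESeq2, median-ratio scaling, no filter, a replicate block, compared libraries only, thinning of the deep libraries, leaving out the 4 libraries and leaving out each library. No 2 libraries of a group agreed within sampling noise (chi-square per degree of freedom of 1.72 or more over 48 pairs).

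The members, the list of 43 other genes and the markers were chosen with earlier results of these data known. The members are named in every comparison with statistics where they passed 0.05. Of the other list, Cr2, Itgam, C5ar1 and Vsig4 are named with levels, and likeness names the 3 nearest genes. The genes nearest to Cfp in dendritic cells are not reported here. Published results of the study were not used here.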

Additional observations from a re-analysis of the deposited data

Results flagged for a closer look

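The response to cisplatin differed between the TDLN and the LN for 11 results, each by the test of the difference itself (edgeR, adjusted p under 0.05). Values are the log2 fold change in the TDLN minus that in the LN, from 3 libraries a group. In MSM the difference was 5.50 for C1qa, 4.77 for C1qb, 4.01 for C3ar1 and 10.17 for C4b. The value for C4b is a fitted one against a group at 0 counts and is no measure of size. Every MSM value includes the libraries labelled MSM of LN CIS, which had few macrophage markers. Without the 4 libraries that resemble the other label it was 0.81 for C1qa, -0.15 for C1qb and 4.94 for C3ar1, and C4b passed again. The calls of C1qa and C1qb were each lost without any of 8 single MSM libraries, with adjusted p = 0.0588 to 0.0802 for C1qa and 0.0888 to 0.225 for C1qb. Both were also lost with the replicate block (adjusted p = 0.0848 and 0.147), and that of C1qb with median-ratio scaling (adjusted p = 0.0506). In SSM the difference was -0.99 for C3, -3.14 for C4b and -1.67 for Cfb, and -1.09, -3.03 and -1.42 without the 4 libraries. Every SSM value includes SSM of LN CIS, where Cr2, Itgam and C5ar1 lay nearer to MSM than to SSM of LN PBS. In mDC the difference was 0.70 for C3 and 1.12 for Cfb, and in rDC 0.88 for C3 and 1.54 for Cfb. With no filter on low counts the call of C3 in mDC was lost, at 0.38 (adjusted p = 0.224).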

How the results depend on the processing

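Numbers of called member results were, as reported and over the fits that each left out a library, 15 (12 to 20) for cisplatin in macrophages, 10 (8 to 11) for cisplatin in dendritic cells, 14 (10 to 18) and 13 (8 to 14) for TDLN against LN in macrophages and dendritic cells, 7 (5 to 9) and 4 (4 to 5) for the node difference of the cisplatin effect, 11 (11 to 13) for MSM against SSM and 29 (26 to 29) for mDC against rDC. Without the 4 libraries that resemble the other label, the macrophage numbers became 34, 35, 14 and 35 in that order. With the compared libraries only, MSM against SSM gave 18, and with no filter on low counts the node difference in dendritic cells gave 7. With the replicate block, the numbers were 14, 10, 11, 12, 5, 4, 11 and 28. No shared animal is stated. Deviations of same-numbered libraries from their group means were correlated between groups of the same cell kind. The r was -0.64 to 0.62 between LN PBS and TDLN CIS of macrophages, which hold the 4 libraries, and -0.23 to 0.24 elsewhere. Libraries of different kinds were not compared in this way, so whether numbers pair libraries is not settled.

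Some values changed sign without the 4 libraries: C1qc in MSM for TDLN against LN with PBS became 1.63; the node difference in MSM became -0.15 for C1qb, -0.61 for C1qc and -0.39 for Cfp; the cisplatin effect became 0.28 for Cfp in SSM of the TDLN, -0.43 for C1qb and -0.26 for C2 in SSM of the LN; and TDLN against LN in SSM became 1.64 for C3ar1 with PBS and 0.38 for C1qb with cisplatin. Of these only the node difference of C1qb in MSM was called as labelled. The cause was not tested. Of 56 called results in dendritic cells 39 kept their call in every setting that gave a value, as did 38 of 47 in macrophages. DESeq2 gave no adjusted p for 11 of the 47, all of them C1q chains in MSM or between MSM and SSM, and the fit of the compared libraries only gave no value for 7 of the 47 and 6 of the 56. With no filter on low counts, C3 and Cfb in mDC lost 3 calls: C3 after cisplatin in the TDLN (0.22, adjusted p = 0.194), C3 for the node difference (0.38, adjusted p = 0.224) and Cfb for TDLN against LN with PBS (-0.20, adjusted p = 0.0643). Median-ratio scaling moved the median of all genes by over 0.1 in 2 of 28 comparisons, by -0.13 for the node difference in MSM and 0.12 for MSM against SSM in LN CIS. Scaling by library totals alone moved 45 of 144 group means of the members by more than 1 SD of the group. In SSM of LN CIS, for example, mean Cfb went from 661 to 596 CPM and mean C3 from 319 to 288. The overlap of ranges was read on the TMM scale only. Low counts limit C2, C4b and C3ar1 in dendritic cells.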
